A study of Mus musculus with 8 samples.

Results

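The 10 genes Pdgfra, Tcf21, Ddr2, Thy1, Dcn, Lum, Dpt, Bgn, Cilp and Fstl1 were taken by name from a table of 13439 genes, as genes that mark cardiac fibroblasts or encode the small proteoglycans and secreted glycoproteins these cells make. All 10 were listed and all 10 passed the filter on low values, at least 1 CPM in at least 2 libraries (CPM are the reads of a gene scaled to a fixed total of reads per library), as did 13120 genes in all. The table holds left ventricular RNA of mice in 8 libraries, 2 in each of 4 groups. Lin28afl/fl littermates carry loxP-flanked alleles of Lin28a (floxed hearts), and Lin28aCko mice are described in the series as a cardiac-specific knockout (cKO hearts). Mice of both genotypes were operated on, with a sham procedure in 1 group and with transverse aortic constriction (TAC), a narrowing of the aortic arch against which the ventricle has to pump, in the other. Hearts with TAC were taken at day 5. The labels give no day for the sham hearts and no age of the mice, and neither they nor the series text names the Cre line that deleted the gene. Separate animals are not stated for the duplicate libraries of a group, and the p-values therefore cover the spread between libraries, which may be technical. The comparison the study is built on asks whether loss of Lin28a changes the response of the heart to pressure load.

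Fibroblasts are the main makers of the collagen-rich matrix between heart muscle cells. In the adult ventricle they are recognised by the surface receptor PDGFRA and by TCF21, a transcription factor they keep from their epicardial origin, and under pressure load they divide, turn on contractile and matrix genes and lay down new matrix. The small leucine-rich proteoglycans decorin, biglycan and lumican have a horseshoe-shaped core protein that binds collagen fibrils and growth factors. Decorin and biglycan carry chondroitin or dermatan sulfate chains, and lumican carries keratan sulfate.

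Between 10315902 and 21871570 reads were assigned to genes per library, so that 3 reads equal 0.137 to 0.291 CPM. Counts of a member ranged from 71 reads (Tcf21 in cKO sham 1) to 56282 reads (Bgn in floxed TAC 2). Transcripts that separate sexes and chambers set 3 libraries apart. Xist, the RNA of the inactive X chromosome, reached 44.3 CPM in cKO sham 2 while no other library exceeded 0.173 CPM, and cKO sham 2 was also the library with no reads of Ddx3y, a gene of the Y chromosome. Myl7, a myosin light chain of the atria, was highest in floxed sham 2 (133 CPM), cKO TAC 2 (66.2 CPM) and cKO sham 2 (65.0 CPM) and did not exceed 6.16 CPM in the remaining 5. The cardiac troponin gene Tnnt2 was at 4710 to 6368 CPM in every library. That marks heart muscle and cannot tell left ventricle from atrium, so the label of left ventricle was not tested by it. Lin28a transcripts were not analysed here, which leaves the labels as the only evidence of genotype.

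Bgn and Cilp, among the members with the largest changes, and Dpt, with no called change, serve as the examples of sequence: the bases before their start sites in RefSeq (GRCm38.p6) are shown so that the same letters can be looked for in genes that did and did not move. TCF21 belongs to the basic helix-loop-helix class of factors, whose binding sequence is the E-box. The bases from 250 before the start site up to it, leaving out bases inside annotated exons, read 5′ to 3′ on the gene's strand with every E-box CANNTG in capitals:
Bgn, chrX:73483351-73483600, plus strand: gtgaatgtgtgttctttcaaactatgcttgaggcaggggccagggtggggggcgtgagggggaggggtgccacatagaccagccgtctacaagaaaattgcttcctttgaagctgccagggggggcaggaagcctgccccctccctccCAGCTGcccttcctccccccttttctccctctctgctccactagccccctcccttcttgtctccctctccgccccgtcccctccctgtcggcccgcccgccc
Cilp, chr9:65264930-65265179, plus strand: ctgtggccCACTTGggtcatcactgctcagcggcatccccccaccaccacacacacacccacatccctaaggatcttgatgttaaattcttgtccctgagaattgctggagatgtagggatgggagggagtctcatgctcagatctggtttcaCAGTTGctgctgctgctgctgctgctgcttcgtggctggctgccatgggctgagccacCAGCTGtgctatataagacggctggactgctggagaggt
Dpt, chr1:164796413-164796643, plus strand: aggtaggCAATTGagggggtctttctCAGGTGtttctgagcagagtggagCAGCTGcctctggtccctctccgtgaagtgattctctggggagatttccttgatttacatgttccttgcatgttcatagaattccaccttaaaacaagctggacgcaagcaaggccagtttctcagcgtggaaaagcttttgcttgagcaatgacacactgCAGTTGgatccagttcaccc
In the full window of 300 bases, from 250 before to 50 after the start, Dpt held 7 matches to CANNTG on either strand, Cilp 3, Pdgfra 2, Bgn and Ddr2 1 each and Tcf21 and Fstl1 none, and 72.3% of the 32851 promoters in the reference hold at least 1. The narrower form CAGCTG, which overlaps it, was found in Dpt, Bgn and Cilp and in 16.3% of all promoters. Neither TGANTCA, the AP-1 form (7.81% of promoters), nor GGAATG, the TEAD form (14.7%), was found in the windows of the 7 members with an entry. The SMAD form CAGAC (49.6%) was found 3 times in Tcf21 and once in Pdgfra. TATAAA (13.6%) was found once in Ddr2, at -185 from the start and on the opposite strand, and once in Dpt, at 12 after the start. The printed Cilp bases hold tatataag near their end, which the exact string does not match. A base composition rich in G and C marked Fstl1 (66.7% of the window) and Bgn (63.7%), and the lowest share was that of Ddr2 (39%). The start site used for Ddr2, at 170088944, lies inside the annotated gene, which on the minus strand begins at 170110762. Its window is therefore not that of the annotated gene start. The start site used for Fstl1, at 37777055, also lies inside the annotated gene, which on the plus strand begins at 37776873. Only the first 68 of the 250 bases before that site precede the annotated gene. No sequence of Dcn, Lum or Thy1 is shown.

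In sham hearts of either genotype the matrix genes Dcn, Bgn, Dpt and Lum led. Levels were compared between genes per kilobase of exon (GENCODE M21, GRCm38, the build of the files). Among floxed sham hearts the order was Dcn (107 CPM per kb), Bgn (76.0), Dpt (57.5), Lum (40.04), Fstl1 (21.6), Ddr2 (5.51), Pdgfra (5.36), Thy1 (4.53), Tcf21 (3.92) and Cilp (2.40), and of the neighbours in that order only Thy1 and Tcf21 had overlapping libraries. The same order held in cKO sham hearts. There the libraries of Dpt and Lum, of Pdgfra and Thy1, of Thy1 and Tcf21 and of Tcf21 and Cilp overlapped.

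No member was called between the genotypes in sham hearts: 0 of 10 passed the threshold, a Benjamini-Hochberg adjusted p under 0.05 over all genes in limma, while 0.0534% of all genes did. At an unadjusted p under 0.05 the count was also 0, and edgeR's quasi-likelihood test called 0, where it called 0.0457% of all genes. The differences of cKO minus floxed sham hearts ran from log2 0.02 (Pdgfra and Tcf21) to 0.53 (Cilp), with a median of 0.06 against 0.02 over all genes tested. All 10 were above 0, although Pdgfra was below 0 under RLE and TMM scaling and Tcf21 under TMM scaling. Libraries of the genotypes did not overlap for 6 members (Pdgfra, Ddr2, Thy1, Dcn, Cilp and Fstl1), each higher in cKO sham hearts, as for 24.9% of all genes. For Cilp the 95% interval was -0.19 to 1.25, so that a difference of that size could not be resolved with 2 libraries a group.

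With TAC in floxed hearts the members spread from log2 0.14 (Dpt) to 4.73 (Cilp). Cilp, Fstl1, Bgn, Thy1, Lum, Tcf21 and Pdgfra, in that order of size, were higher, 7 of 10, where 42.4% of all genes were called and 27.9% were called higher. Dcn, Dpt and Ddr2 did not pass. The median difference of the 10 was log2 0.97, against 0.14 over all genes tested. In bulk tissue RNA, fewer cells of a type and less RNA per cell cannot be told apart, and the same holds for more cells and more RNA per cell. Libraries of floxed TAC and floxed sham hearts did not overlap for 8 members, all higher, as for 46.7% of all genes.

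**Figure D1:**
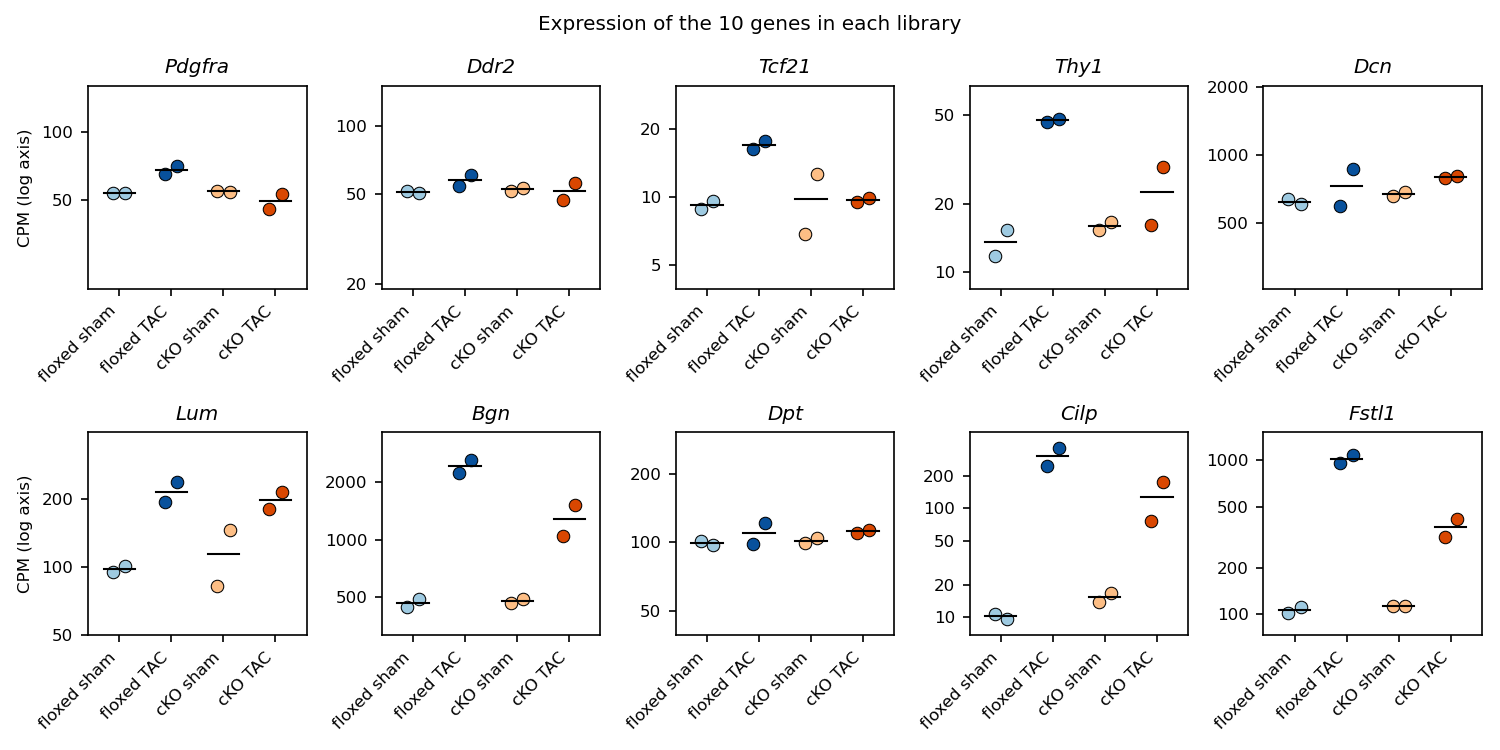
Level of each of the 10 genes in each of the 8 libraries (CPM, log axis), with 1 point per library, a horizontal line at the mean of each group, the 4 groups along the x axis and a separate CPM range per gene. Fstl1, Cilp and Bgn lie highest in both floxed TAC libraries with cKO TAC libraries between them and the sham libraries. Dcn, Dpt and Ddr2 had no called change with TAC.

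Among the receptors and surface proteins, Pdgfra (chromosome 5, 75152292 to 75198215, plus strand), the platelet-derived growth factor receptor alpha, was at 53.8 and 53.7 CPM in floxed sham, 65.2 and 70.6 in floxed TAC, 54.9 and 54.0 in cKO sham and 45.6 and 52.8 in cKO TAC libraries. Both floxed TAC libraries lay above all sham libraries, and both cKO TAC libraries lay below them. The difference in floxed hearts was log2 0.33 ± 0.12 (SE, limma, adjusted p = 0.0470), and it did not pass under RLE scaling (0.19, adjusted p = 0.217) or TMM scaling (0.18, adjusted p = 0.225), in the count tests, or without the 3 libraries with Myl7 (adjusted p = 0.139). Of the 8 fits that left out 1 library, it passed only in those without cKO TAC 1 or 2. In cKO hearts it was -0.15 ± 0.12 (adjusted p = 0.598).

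Ddr2 (chromosome 1, 169972307 to 170110762, minus strand), a receptor tyrosine kinase for fibrillar collagen, was at 51.4 and 50.7 CPM in floxed sham, 54.0 and 60.9 in floxed TAC, 51.8 and 53.2 in cKO sham and 47.1 and 56.0 in cKO TAC libraries. Its values stayed between 47.1 and 60.9 CPM in all 8 libraries. No change passed: the difference with TAC was log2 0.17 with a 95% interval of -0.12 to 0.45 in floxed hearts and -0.03 with an interval of -0.31 to 0.25 in cKO hearts. Exons of Ddr2 share 90 of 9264 bases with an antisense gene, 3110045C21Rik, and those of Pdgfra share 341 and 166 of 10024 bases with 2 antisense gene models, Gm42802 and Gm42803. How strand was treated in counting is not given in the sources used.

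Thy1 (chromosome 9, 44043384 to 44048579, plus strand), a lipid-anchored surface glycoprotein of fibroblasts that T cells and neurons also carry, was at 11.7 and 15.4 CPM in floxed sham, 46.8 and 48.3 in floxed TAC, 15.4 and 16.7 in cKO sham and 16.2 and 29.2 in cKO TAC libraries. Floxed TAC libraries were above all others, and cKO TAC 1 lay between the cKO sham libraries. Thy1 rose by log2 1.75 ± 0.24 in floxed hearts (adjusted p = 0.000422) and stood at 0.42 ± 0.24 in cKO hearts (adjusted p = 0.436, but 0.83 with adjusted p = 0.0466 without cKO TAC 1, and 0.01 without cKO TAC 2). Of 8 T cell markers only Cd4 was analysed here, at 0.840 to 2.72 CPM. Of 5 tested markers of Schwann cells and neurons 1 was higher and 1 lower in floxed TAC hearts, with a median difference of log2 0.03. Their summed level was 16.6 to 19.5 CPM in floxed sham and 52.5 to 56.3 CPM in floxed TAC libraries. With that median the sum does not stand for the 5 markers as a set. The part of these cells in the Thy1 result was not tested.

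Tcf21 (chromosome 10, 22817281 to 22820174, minus strand), the transcription factor of resting fibroblasts, was the least abundant member by reads. It was at 8.82 and 9.60 CPM in floxed sham, 16.2 and 17.7 in floxed TAC, 6.88 and 12.7 in cKO sham and 9.54 and 9.85 in cKO TAC libraries. Both floxed TAC libraries were above all others, and both cKO TAC libraries lay between the cKO sham libraries. Tcf21 rose by log2 0.81 ± 0.24 in floxed hearts (adjusted p = 0.0235), a call that was lost when any 1 of the 4 floxed libraries was left out (adjusted p = 0.116 and 0.0751 without floxed sham 1 and 2, 0.0739 and 0.115 without floxed TAC 1 and 2). In cKO hearts the difference was 0.04 ± 0.24 (adjusted p = 0.954). The cKO sham libraries, with 71 and 191 reads, had exact 95% Poisson intervals of 5.38 to 8.68 and 10.9 to 14.6 CPM, which do not overlap. These intervals cover counting error only.

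Among the small leucine-rich proteoglycans, biglycan rose and decorin, its close relative, did not pass. Dcn (chromosome 10, 97479609 to 97518143, plus strand), encoding decorin, was at 637 and 610 CPM in floxed sham, 598 and 866 in floxed TAC, 657 and 688 in cKO sham and 789 and 806 in cKO TAC libraries. The floxed TAC libraries lay on either side of the sham libraries, while both cKO TAC libraries were above both cKO sham libraries. No change of Dcn passed: log2 0.21 (95% interval -0.14 to 0.56, adjusted p = 0.319) in floxed and 0.25 (-0.11 to 0.60, adjusted p = 0.483) in cKO hearts. In floxed hearts the difference was 0.47 (adjusted p = 0.0187) without floxed TAC 1 and -0.06 without floxed TAC 2.

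Bgn (chromosome X, 73483602 to 73495933, plus strand), encoding biglycan, was at 441 and 487 CPM in floxed sham, 2248 and 2615 in floxed TAC, 463 and 488 in cKO sham and 1045 and 1516 in cKO TAC libraries. The TAC groups overlapped neither with the sham groups nor with each other. Bgn rose by log2 2.39 ± 0.17 in floxed hearts (adjusted p = 1.94e-05), a ratio of means of 5.24, and by log2 1.404 ± 0.17 in cKO hearts (adjusted p = 0.00470), a ratio of 2.69. The cKO call was lost without the 3 libraries with Myl7 (adjusted p = 0.0961), which leaves 1 library in each cKO group. cKO sham 2, the library with Xist, held 488 CPM of this X-linked gene against 463 CPM in cKO sham 1, and without it the cKO difference was log2 1.44 (adjusted p = 0.0401).

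Lum (chromosome 10, 97565128 to 97572703, plus strand), encoding lumican, begins 46984 bases after the end of Dcn on the same strand. It was at 94.9 and 101 CPM in floxed sham, 193 and 237 in floxed TAC, 82.7 and 146 in cKO sham and 180 and 213 in cKO TAC libraries. All 4 TAC libraries were above all 4 sham libraries. Lum rose by log2 1.12 ± 0.23 in floxed hearts (adjusted p = 0.00329), and in cKO hearts it stood at 0.83 ± 0.23 (adjusted p = 0.0958). The cKO value passed in 3 of 19 alternatives: without cKO sham 2 (1.24, adjusted p = 0.0316), with DESeq2 (adjusted p = 0.00744) and with the replicate number as a block (adjusted p = 0.0354).

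Per kilobase of exon, Bgn thus passed Dcn with TAC. Dcn made up 49.6% and 46.3% of the summed level of Dcn, Bgn and Lum in floxed sham libraries and 18.6% and 22.0% in floxed TAC libraries, while Bgn went from 32.8% and 35.4% to 67.0% and 63.6%. Among cKO hearts Bgn was at 34.2% and 31.1% in sham and 45.1% and 52.5% in TAC libraries, below both floxed TAC libraries. The summed level was 223 ± 3.88 CPM per kb (SD, n = 2) in floxed sham, 612 ± 87.6 in floxed TAC, 240 ± 24.9 in cKO sham and 427 ± 66.1 in cKO TAC hearts. With 2 libraries against 2, no exact permutation test of such a share can pass the threshold, so none was made.

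**Figure D2:**
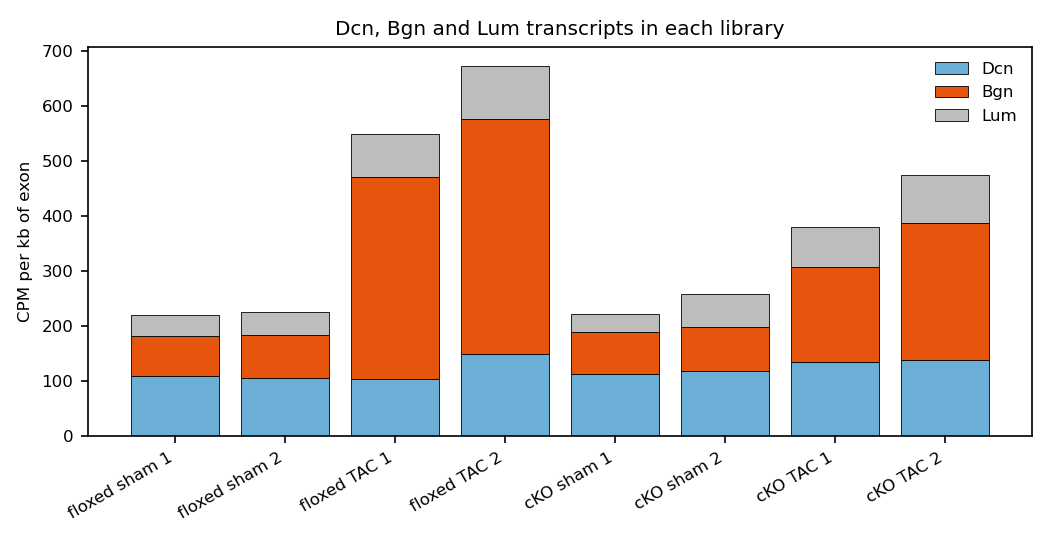
Summed level of Dcn, Bgn and Lum per kilobase of exon in each of the 8 libraries, with a bar per library from 0 divided by gene. Bgn fills 63.6% to 67.0% of the bar in floxed TAC libraries and 45.1% to 52.5% in cKO TAC libraries. The part of Dcn is 104 to 109 CPM per kb high in floxed sham and 103 and 148 in floxed TAC libraries. In cKO hearts it is 113 to 118 in sham and 135 to 138 in TAC libraries.

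Of 9 other small leucine-rich proteoglycan genes tested, 3 were higher in floxed TAC hearts and 6 did not pass (under RLE and TMM scaling 1 was lower). That share is near the 27.9% of all genes called higher in this comparison and is no result about the family. Fmod (fibromodulin, log2 2.34 ± 0.29), Tsku (tsukushi, 2.27 ± 0.35) and Aspn (asporin, 2.17 ± 0.15) were the 3 that rose, each by nearly as much as Bgn. Omd (osteomodulin, 0.37 ± 0.24), Prelp (0.20 ± 0.19), Ecm2 (0.18 ± 0.18), Podn (podocan, -0.22 ± 0.26), Ogn (osteoglycin, -0.32 ± 0.13) and Chad (chondroadherin, -0.41 ± 0.31) did not pass, as Dcn did not. In cKO hearts Fmod (1.46 ± 0.29) and Aspn (1.18 ± 0.15) were higher, and Tsku stood at 0.63 ± 0.35 (adjusted p = 0.411). Without the 3 libraries with Myl7 neither call in cKO hearts was kept. Kera, Epyc, Podnl1, Optc and Nyx were not analysed here.

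**Figure D3:**
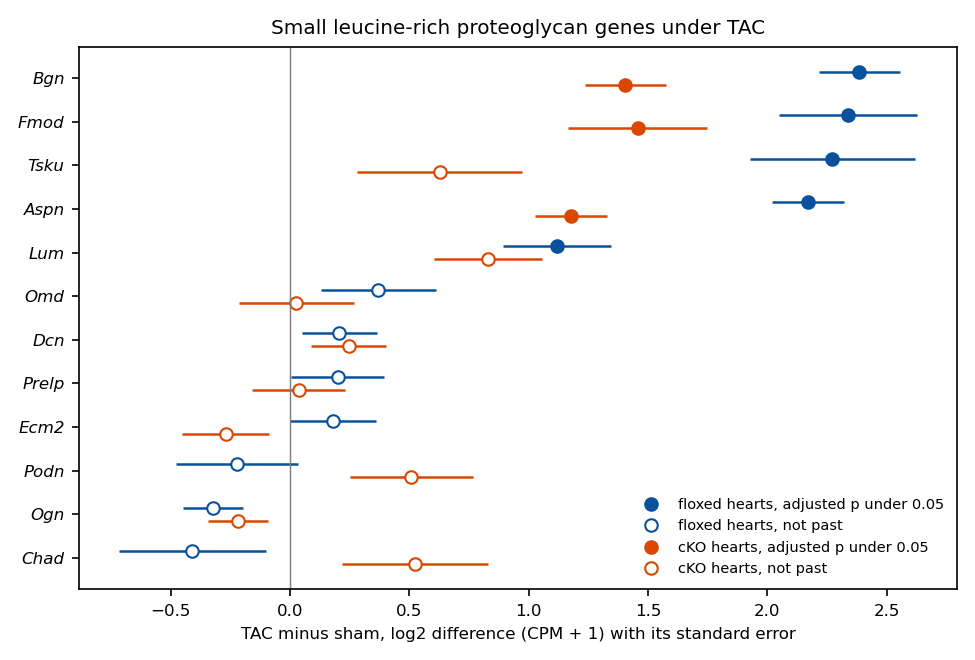
TAC minus sham differences (log2 of CPM + 1, horizontal bars are standard errors) of the 12 tested small leucine-rich proteoglycan genes in floxed and cKO hearts, with filled points where the adjusted p was under 0.05. Bgn, Fmod, Tsku, Aspn and Lum lie above log2 1 in floxed hearts, and the other 7 lie between -0.41 and 0.37.

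Of the 21 tested genes that build chondroitin and dermatan sulfate chains, 10 were higher and 11 did not pass in floxed TAC hearts. Of all genes 27.9% were called higher there. None of the 21 was called in cKO TAC hearts, where only 2.53% of all genes were called. Under RLE and TMM scaling 1 was lower in floxed TAC hearts. The highest were Dse, the dermatan sulfate epimerase (log2 2.0001 ± 0.24), and Chpf, the chondroitin polymerizing factor (1.69 ± 0.19). The lowest were Fam20b, the xylose kinase of the linker (-0.27 ± 0.12, adjusted p = 0.114), and Chst15, a sulfotransferase (0.03 ± 0.21). In cKO TAC hearts Dse stood at 0.56 ± 0.24 and Chpf at 0.51 ± 0.19 (adjusted p = 0.296 and 0.213). When the TAC responses of both genotypes were compared, 3 of the 21 had a smaller response in cKO hearts and 18 did not pass. Of all genes 9.18% were called in that direction.

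Among the other matrix members, Dpt (chromosome 1, 164796644 to 164824266, plus strand), encoding dermatopontin, which binds decorin, was at 101 and 97.3 CPM in floxed sham, 97.9 and 122 in floxed TAC, 99.3 and 104 in cKO sham and 110 and 114 in cKO TAC libraries. No change passed, with log2 0.14 and a 95% interval of -0.13 to 0.41 in floxed hearts and 0.14 with -0.14 to 0.41 in cKO hearts. Under RLE and TMM scaling the floxed value was -0.006 and -0.012. The ratio of Dpt to Dcn CPM lay between 0.140 and 0.164 in all 8 libraries, including floxed TAC 1 and 2, in which both genes were low and high together.

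Cilp (chromosome 9, 65265180 to 65280605, plus strand), encoding the cartilage intermediate layer protein, a secreted matrix protein, was at 10.8 and 9.60 CPM in floxed sham, 246 and 355 in floxed TAC, 13.9 and 16.7 in cKO sham and 77.2 and 176 in cKO TAC libraries. No groups overlapped, and both cKO sham libraries were above both floxed sham libraries. Cilp rose by log2 4.73 ± 0.32 in floxed hearts (adjusted p = 1.71e-05), a ratio of means of 29.4, and by 2.86 ± 0.32 in cKO hearts (adjusted p = 0.00348), a ratio of 8.30. It moved from the last place of the 10 per kilobase of exon in floxed sham hearts to the fifth in floxed TAC hearts (70.7 CPM per kb), where its libraries overlapped with those of Lum and Dpt.

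Fstl1 (chromosome 16, 37776873 to 37836514, plus strand), encoding follistatin-like 1, a secreted glycoprotein of the SPARC family, was at 101 and 111 CPM in floxed sham, 954 and 1085 in floxed TAC, 112 and 112 in cKO sham and 314 and 416 in cKO TAC libraries. The 3 levels, sham, cKO TAC and floxed TAC, did not overlap. Fstl1 rose by log2 3.25 ± 0.14 in floxed hearts (adjusted p = 3.01e-06), a ratio of means of 9.59, and by 1.68 ± 0.14 in cKO hearts (adjusted p = 0.000824), a ratio of 3.25. Per kilobase of exon it was second to Bgn in floxed TAC hearts (207 against 399 CPM per kb). In cKO TAC hearts the order was Bgn (210 CPM per kb), Dcn (137), Lum (80.4), Fstl1 (74.3), Dpt (65.0), Cilp (29.8), Thy1 (7.58), Ddr2 (5.56), Pdgfra (4.91) and Tcf21 (4.13), with libraries of Lum, Fstl1 and Dpt, and of Thy1, Ddr2 and Pdgfra, overlapping from one to the next.

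Of 7 tested relatives of Fstl1, 2 were higher in floxed TAC hearts and 5 did not pass. That share is near the 27.9% of all genes called higher in this comparison and is no result about these relatives. Fstl3, a secreted antagonist of activin (log2 2.53 ± 0.32), and Sparc, a collagen-binding glycoprotein (1.97 ± 0.19), rose. Fstl4 (0.55 ± 0.30), Smoc1 (-0.13 ± 0.29), Smoc2 (-0.22 ± 0.17), Sparcl1 (-0.47 ± 0.19) and Spock2 (-0.52 ± 0.46) did not pass, though 1 relative was called lower under RLE and TMM scaling. None of the 7 was called in cKO TAC hearts (1 was higher under TMM scaling), where 2.53% of all genes were called. In those hearts Fstl3 stood at 1.396 ± 0.32 (adjusted p = 0.0555) and Sparc at 0.85 ± 0.19 (adjusted p = 0.0535). Cilp2, the relative of Cilp, was at most 1.32 CPM in any library and was not tested.

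Around the receptor members, 3 of 7 genes for PDGF ligands, the other PDGF receptors and DDR1 were higher in floxed TAC hearts and none in cKO TAC hearts. Of all genes 27.9% were called higher in floxed and 2.09% in cKO TAC hearts. Pdgfrl, a receptor-like protein (log2 2.65 ± 0.29), the ligand gene Pdgfc (2.06 ± 0.30) and the collagen receptor gene Ddr1 (1.205 ± 0.17) rose. The ligand genes Pdgfa (0.34 ± 0.31), Pdgfb (0.33 ± 0.27) and Pdgfd (-0.53 ± 0.20) and the receptor gene Pdgfrb (0.43 ± 0.24) did not pass, and 1 gene of the list was called lower under RLE and TMM scaling. Of 13 transcription factors of fibroblasts and epicardium other than Tcf21, 5 were higher in floxed TAC hearts and none in cKO TAC hearts. The shares of all genes to set beside these counts are again 27.9% and 2.09%. Runx1 (3.58 ± 0.42) and Twist1 (1.84 ± 0.24) were the highest, and Tead1 (-0.05 ± 0.14) and Tcf4 (0.00 ± 0.18) the lowest.

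TAC in cKO hearts called 3 of the 10, Fstl1, Cilp and Bgn, all higher, against 2.53% of all genes called and 2.09% called higher. The median difference of the 10 was log2 0.33, against 0.02 over all genes. Libraries did not overlap for 6 members that were higher and for 1 that was lower, Pdgfra, as for 23% and 19.9% of all genes. DESeq2, the replicate block and the fit without cKO sham 2 each called Lum as well, and the fit without cKO TAC 1 called Thy1. Without the 3 libraries with Myl7, Fstl1 and Cilp were called, both higher, and 62 of 13120 genes against 332 with all libraries. That fit has 1 library in each group but floxed TAC, so its spread comes from the floxed TAC pair alone.

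**Figure D4:**
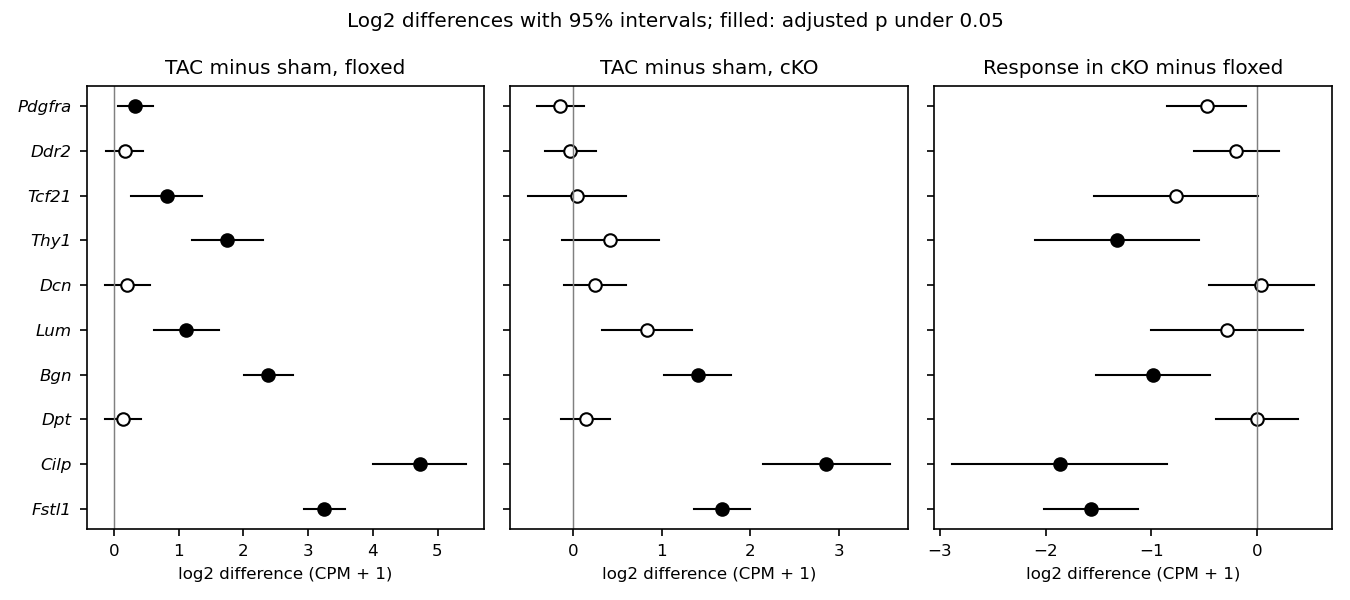
Differences in log2(CPM + 1) with 95% intervals for the 10 genes, for the TAC response of each genotype and for the difference between both responses (cKO minus floxed), with filled points where the adjusted p was under 0.05 and a separate x axis in each panel. The difference between responses is below 0 with a filled point for Fstl1, Cilp, Bgn and Thy1, and the intervals of Dcn, Dpt and Ddr2 include 0 in each panel.

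Under TAC, 5 of the 10 were lower in cKO than in floxed hearts and none was higher, where 24.9% of all genes were called and 16.5% were called lower. Fstl1 differed by log2 -1.49 ± 0.14 (adjusted p = 0.000791), Cilp by -1.33 ± 0.32 (adjusted p = 0.0156), Thy1 by -1.09 ± 0.24 (adjusted p = 0.0118), Bgn by -0.94 ± 0.17 (adjusted p = 0.00490) and Pdgfra by -0.46 ± 0.12 (adjusted p = 0.0208). Tcf21 stood at -0.74 ± 0.24 (adjusted p = 0.0516) and passed in 7 of 19 alternatives, among them the replicate block (adjusted p = 0.0402), limma-voom (adjusted p = 0.0331) and the 4 TAC libraries alone (adjusted p = 0.0319). Ddr2, Lum, Dpt and Dcn lay between -0.16 and 0.15. The median of the 10 was -0.60, against -0.10 over all genes tested. The count fell to 2, Fstl1 and Bgn, without floxed TAC 2 or without cKO TAC 1, and to 3 without floxed TAC 1. Calls over all genes fell as well in these fits, from 3263 to 1330, 1398 and 1526. Pdgfra was lost under TMM scaling (adjusted p = 0.05003), with DESeq2 (adjusted p = 0.0747) and in a fit of the 4 TAC libraries alone (adjusted p = 0.0656).

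The difference between both TAC responses was tested as the genotype by surgery interaction, in which a value below 0 is a smaller rise, or a larger fall, without Lin28a. Fstl1 (log2 -1.57 ± 0.20, adjusted p = 0.00454), Cilp (-1.87 ± 0.45, adjusted p = 0.0272), Bgn (-0.98 ± 0.24, adjusted p = 0.0275) and Thy1 (-1.33 ± 0.35, adjusted p = 0.0338) passed, all with the smaller response in cKO hearts. That is 4 of 10, where 14.1% of all genes were called and 9.18% were called in this direction. Fstl1 passed in all 18 alternatives (highest adjusted p = 0.0341), and it was the only member to pass without either floxed sham library, without either floxed TAC library or without cKO sham 2. Calls over all genes, 1851 with all libraries, numbered 253, 608, 697, 729 and 1187 in these fits. Pdgfra (-0.48 ± 0.17, adjusted p = 0.0855) did not pass except without cKO TAC 2 (adjusted p = 0.0383), nor Tcf21 (-0.77 ± 0.35, adjusted p = 0.161) except without cKO sham 1 (adjusted p = 0.0341). For Lum, with -0.29 and a 95% interval of -1.003 to 0.43, Ddr2 (-0.20, interval -0.60 to 0.20), Dcn (0.04, interval -0.46 to 0.54) and Dpt (-0.001, interval -0.39 to 0.39) a difference between genotypes was not detectable with these libraries.

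Fibroblast genes outside the 10 were called in both directions in floxed TAC hearts, the lower ones at a share near that of all genes. The shares of all genes called higher were 27.9% in floxed and 2.09% in cKO TAC hearts. Called lower were 1907 of 13120 genes in floxed and 58 in cKO TAC hearts. Of 18 other fibroblast genes, 13 were higher and 3 lower in floxed TAC hearts, and 7 were higher and 0 lower in cKO TAC hearts (2 higher without cKO sham 2). The fibrillar collagen genes Col1a1 (log2 4.33 ± 0.33) and Col1a2 (3.87 ± 0.25) were highest, and Scara5, a ferritin receptor (-2.39 ± 0.21), and Gsn, the actin-severing gelsolin (-1.62 ± 0.19), were lowest. All 12 genes of activated fibroblasts were higher in floxed TAC hearts (11 under RLE and TMM scaling) and 9 in cKO TAC hearts (5 without cKO sham 2). Tnc, the matrix protein tenascin C, rose most (8.03 ± 0.62 in floxed hearts), and Fap (1.69 ± 0.26) and Acta2 (0.65 ± 0.22) least. In cKO against floxed TAC hearts, 12 of the 18 other fibroblast genes were lower and 3 higher. Of the 12 genes of activated fibroblasts 9 were lower and 0 higher. Of all genes 16.5% were called lower and 1101 of 13120 higher in that comparison.

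Markers of other cell types moved in the same libraries. Of the 13120 genes tested, 27.9% were called higher and 1907 genes were called lower in floxed TAC hearts. Summed levels of 10 macrophage markers were 410 to 415 CPM in floxed sham, 2069 to 2332 in floxed TAC, 334 to 440 in cKO sham and 738 to 1009 in cKO TAC libraries, and all 10 were higher in floxed TAC hearts. For 7 listed mesothelial and epicardial markers the sums were 1.88 to 4.62, 25.1 to 25.9, 4.98 to 8.05 and 8.05 to 12.7 CPM in the same order. Proliferation genes summed to 18.7 to 26.8, 232 to 232, 11.1 to 18.4 and 88.0 to 127 CPM. Cardiomyocyte markers summed to 71168 to 83319, 38285 to 39381, 61575 to 68075 and 55139 to 74540 CPM, and 6 of 10 were lower in floxed TAC hearts. The sums of 11 smooth muscle and pericyte markers were 3720 to 3843, 7389 to 8006, 3998 to 4059 and 4898 to 5468 CPM. In floxed TAC hearts 4 of these markers were higher and 3 lower, with a median difference of log2 0.09. A sum follows its most abundant genes, so this one does not stand for the 11 markers as a set. No endothelial marker of 10 was called in any comparison (1 was lower in floxed TAC hearts under RLE and TMM scaling, and 2 were lower in cKO than in floxed TAC hearts without the 3 libraries with Myl7). In cKO against floxed TAC hearts, 10 of 10 macrophage markers and 8 of 10 proliferation genes were lower. Higher there were 7 of 10 cardiomyocyte markers. Of 6 tested mesothelial and epicardial markers 4 were lower. Of 11 smooth muscle and pericyte markers 1 was higher and 3 lower (2 and 2 under RLE scaling). Of all genes 16.5% were called lower and 1101 of 13120 higher in that comparison. The part of these cell types in the results on the 10 genes was not tested.

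Across the 8 libraries the members fell along different profiles, described here by Pearson's r of log2(CPM + 1), which these libraries share in depth and group structure. Bgn and Fstl1 were most alike (r = 0.996), followed by Bgn and Cilp (0.990), Cilp and Fstl1 (0.980) and Dcn and Dpt (0.977). Least alike were Pdgfra and Dcn (0.033). Of the other tested genes, Mfap5, a microfibril protein gene, and Timp1, a metalloproteinase inhibitor gene, were closest to Fstl1 (both 0.998), and Col12a1, a fibril-associated collagen gene, and Galns were closest to Bgn (both 0.996). Krt18, a keratin gene, was closest to Cilp (0.996), Rab5c to Thy1 (0.998), Cdyl2 to Tcf21 (0.988), Dnajc3 to Pdgfra (0.983), Eif4g3 to Ddr2 (0.982), Mcm9 to Lum (0.971) and Serping1 to Dpt (0.951).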

How the data were processed

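The deposited values are CPM made by the authors, and per the submitters' processing notes Bowtie2 2.2.6, HTSeq, DESeq2 and the mm10 genome were used. Their order, the annotation and the strand setting are not given in the sources used, and the libraries were made with a stranded mRNA kit and sequenced as paired reads, per the labels' protocols. Whole reads (tolerance 0.02 reads) were recovered from 100% of the values for the count tests. CPM sums to a fixed total, so a large change of some genes moves the others the opposite way. In floxed TAC against sham hearts unscaled CPM put the median of all genes above 0, at log2 0.14. Rises there were therefore larger in unscaled CPM than after scaling. RLE scaling moved this median to 0.00, and the share of higher calls from 65.7% to 53.4% (TMM 52.7%). In cKO against floxed TAC hearts that share was 33.7%, 44.8% under RLE and 47.1% under TMM, and for the interaction 35.0%, 47.9% and 50.3%.

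limma 3.58.1 (R 4.3.3) with trended variance was fitted to log2(CPM + 1), which understates changes of low genes, with all 8 libraries, 1 coefficient per group, and genes of at least 1 CPM in at least 2 libraries (319 removed), with Benjamini-Hochberg adjustment at 0.05. It was tested on simulated data with 200 changed genes. That simulation gave every gene the same dispersion, so it cannot show how the test performs at the spread of these duplicate libraries. edgeR 4.0.16 on recovered reads called 5559, 346, 6, 3070 and 1601 genes, and limma 5562, 332, 7, 3263 and 1851, for TAC in floxed and in cKO hearts, genotype in sham and in TAC hearts, and the interaction. DESeq2 1.42.0, limma-voom, RLE and TMM scaling, pseudocounts of 0.25 and 5 CPM, no filter, the 4 libraries of a comparison, a replicate block, no libraries with atrial transcripts and each library left out were the alternatives. The members, lists and tests were chosen with earlier results of these data known. Named outside the 10 are, per list, the 2 highest and 2 lowest in floxed TAC hearts, every proteoglycan, ligand, receptor and relative tested, and the 3 genes most alike each member, of which the closest are printed (that of Dcn is not reported here). The planned protein comparison of Dcn, Bgn and Lum was not made.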

Additional observations from a re-analysis of the deposited data

Results flagged for a closer look

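Responses of 4 members to TAC differed between the genotypes in the test of the interaction by limma. The cKO minus floxed response was log2 -1.33 for Thy1 (adjusted p = 0.0338), -0.98 for Bgn (adjusted p = 0.0275), -1.87 for Cilp (adjusted p = 0.0272) and -1.57 for Fstl1 (adjusted p = 0.00454). When each of the 8 libraries was left out in turn, Fstl1 passed in 8 fits, Bgn and Cilp in 2 and Thy1 in 1, and the direction was the same in every fit. Per library, Fstl1 was at 314 and 416 CPM in cKO TAC against 954 and 1085 CPM in floxed TAC hearts, and Thy1 at 16.2 and 29.2 against 46.8 and 48.3 CPM.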

How the results depend on the processing

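Groups of 2 libraries limit each result. Of 950 values of the members under alternatives, 849 kept direction and side of the threshold. Leave-one-library-out counts of members called ranged from 2 to 6 for cKO against floxed TAC hearts (5 with all libraries) and from 1 to 5 for the interaction (4), and the cause was not tested. The interaction was not run on 4 libraries, since it needs all groups. Values that reversed were not past the threshold in either setting. Under RLE scaling they were Dpt in floxed TAC (-0.00646), Pdgfra in sham (-0.00396) and the interaction of Dpt (0.12). TMM scaling gave -0.0123, -0.00747, 0.14 and -0.000161 for Tcf21 in sham. Pdgfra in sham, Tcf21 in cKO TAC and the interaction of Dpt were -0.00958, -0.036 and 0.11 with edgeR, -0.00471, -0.043 and 0.11 with DESeq2 and -0.011, -0.035 and 0.12 with limma-voom. Without the 3 libraries with atrial transcripts, sham differences were -0.32 for Tcf21, -0.20 for Lum and -0.026 for Dpt, and the interaction of Dpt was 0.039. Leaving out 1 library gave ranges across 0 for sham differences of Tcf21 (-0.37 to 0.42), Lum (-0.24 to 0.57) and Bgn (-0.035 to 0.11), TAC in floxed hearts of Dcn (-0.058 to 0.47) and Dpt (-0.018 to 0.30), TAC in cKO hearts of Tcf21 (-0.35 to 0.44) and Ddr2 (-0.15 to 0.092), cKO against floxed TAC of Dcn (-0.12 to 0.41), Lum (-0.27 to 0.024) and Dpt (-0.12 to 0.19), and interactions of Dcn (-0.23 to 0.30), Lum (-0.69 to 0.12) and Dpt (-0.16 to 0.16). With RLE, TMM, edgeR, DESeq2 or limma-voom, 6 members instead of 7 were called in floxed TAC hearts, Pdgfra being lost. The replicate numbers did not pair the libraries: deviations of same-numbered libraries correlated at -0.11 to 0.081. With the replicate block 7, 4, 0, 6 and 4 members were called for TAC in floxed and cKO hearts, genotype in sham and TAC hearts and the interaction, against 7, 3, 0, 5 and 4. Crossed numbers in floxed TAC, chosen after seeing the data, called 6 in floxed TAC hearts.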

Other observations

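Within a library the receptor genes shifted against each other. The ratio of Ddr2 to Pdgfra CPM was 0.955 and 0.945 in floxed sham, 0.829 and 0.863 in floxed TAC, 0.943 and 0.985 in cKO sham and 1.03 and 1.06 in cKO TAC libraries, so that the 2 TAC groups lay on opposite sides of the sham libraries. The ratio of Thy1 to Pdgfra was 0.218 to 0.308 in sham libraries of either genotype, 0.684 and 0.718 in floxed TAC and 0.354 and 0.553 in cKO TAC libraries. These ratios have no test with 2 libraries a group, and levels of the genes were not compared through them.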
